A study of Mus musculus with 6 samples.

Results

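The 8 genes described here encode receptors through which gut hormones, glucagon, fatty acids, lipid amides, acetylcholine and noradrenaline act on islet cells: Glp1r, Gipr, Gcgr, Ffar1, Ffar2, Gpr119, Chrm3 and Adra2a. They were found on the array by exact gene name, which gave 9 probes of 39429 and 8 gene names of 31829. Glp1r had 2 probes and each other receptor had 1.

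Islets are the hormone-secreting cell clusters of the pancreas, and these were bulk islet RNA samples, so that fewer cells of a type and less RNA per cell cannot be told apart. The mutant group was Nkx6.1fl/-;Pdx1-CreERTM, with a floxed and a null allele of Nkx6-1, a homeodomain transcription factor of beta cells. The control group was their littermates of genotype Nkx6.1fl/+;Pdx1-CreERTM, with a floxed and a wild-type allele. Both groups carried the tamoxifen-inducible Cre recombinase under the Pdx1 promoter, and both were male, 6 weeks old and of mixed background (FVB/N x C57Bl/6J and Cd1 x C57Bl/6J). All mice had received 4 injections of tamoxifen in corn oil, 2 mg per 25 g of body weight, from week 4 to week 6. Each group had 3 samples, called A, B and C, and each sample was the pooled islet RNA of 2 pancreata. Controls had 1 allele that Cre could not delete, mutants lacked the other allele before tamoxifen too, and Pdx1 is active in beta cells and some other islet cells. The comparison asked how the receptors differ in islets that lose Nkx6-1.

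Glucagon-like peptide 1 (GLP-1), glucose-dependent insulinotropic peptide (GIP) and glucagon act through related class B receptors that couple mainly to the G protein Gs and raise cyclic AMP, which strengthens glucose-stimulated insulin secretion. GPR119 also couples to Gs, whereas FFAR1 and the muscarinic M3 receptor work mainly through Gq, phospholipase C and calcium release. FFAR2 couples to Gi and Gq, and the alpha-2A adrenergic receptor couples to Gi and Go and inhibits insulin secretion.

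Across the arrays, 66.8%, 63.9% and 74.4% of probes were well above background on mutant arrays A, B and C, against 73.4%, 75.6% and 76.3% on control arrays A, B and C. Mutant B, mutant C and control A lay on slide 1, and mutant A, control B and control C on slide 2, so differences are also given within each slide. Nkx6-1 itself averaged a normalized log2 signal of 4.28 ± 0.20 in mutants and 4.76 ± 0.10 in controls (SD, n = 3 each), a difference of -0.48 (SE 0.14) that was not called (limma, adjusted p = 0.131). The deleted segment of Nkx6-1 is not given in the sources used here, so the probe may lie outside it.

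Normalized log2 signal is the log2 of the background-corrected intensity minus the 75th percentile of its array, so 0 marks that percentile. Levels of different probes cannot be set against each other on this scale. Differences are mutant minus control, and the threshold for a call was 0.05 on the limma p after Benjamini-Hochberg adjustment across the 22775 gene names tested. All 9 probes were well above background on all 6 arrays, and none was saturated or flagged as an outlier.

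The probe sequences are shown for the receptor with a pair of overlapping probes and for the receptor called lower. The Glp1r probes lie on the plus strand of chromosome 17, at chr17:31073261-31073320 for the brighter and chr17:31073256-31073315 for the dimmer (mm9). Exon and UTR annotation of that build was not used here. Capitals mark the bases at which the pair differ.
Glp1r, brighter probe: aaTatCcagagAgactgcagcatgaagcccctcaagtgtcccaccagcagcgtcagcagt
Glp1r, dimmer probe: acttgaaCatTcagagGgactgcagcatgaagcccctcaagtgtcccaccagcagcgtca
Each is 60 bases long. The dimmer probe starts 5 bases upstream, the pair share 55 positions, and 52 of these are identical. The substitutions T3C, C6T and A12G give the brighter probe's base, its position counted from 1 at that probe's 5′ end, and the dimmer probe's base. Which of them matches the mouse transcript was not tested.

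The single Ffar1 probe lies on the minus strand of chromosome 7, at chr7:31645724-31645783 (mm9), and its sequence is the one that the lower call rests on.
Ffar1 probe: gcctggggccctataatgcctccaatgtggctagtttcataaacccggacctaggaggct

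Of the 8 receptors, Gpr119 rose in mutant islets and Ffar1 fell, while the other 6 did not pass the threshold. That is 25% of the receptors called, against 2.53% of all genes tested (1.41% higher and 1.12% lower). Mutant and control arrays did not overlap for 6 of the 8 receptors, against 26.3% of all genes. Gpr119, Ffar2 and Gcgr lay above the controls, as did 12.3% of all genes, and Ffar1, Glp1r and Adra2a lay below them, as did 14% of all genes. The same 6 had an unadjusted limma p under 0.05, against 20.2% of all genes. The median difference of the receptors was -0.08, against -0.03 over all genes tested, with 3 receptors positive and 5 negative.

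**Figure D1:**
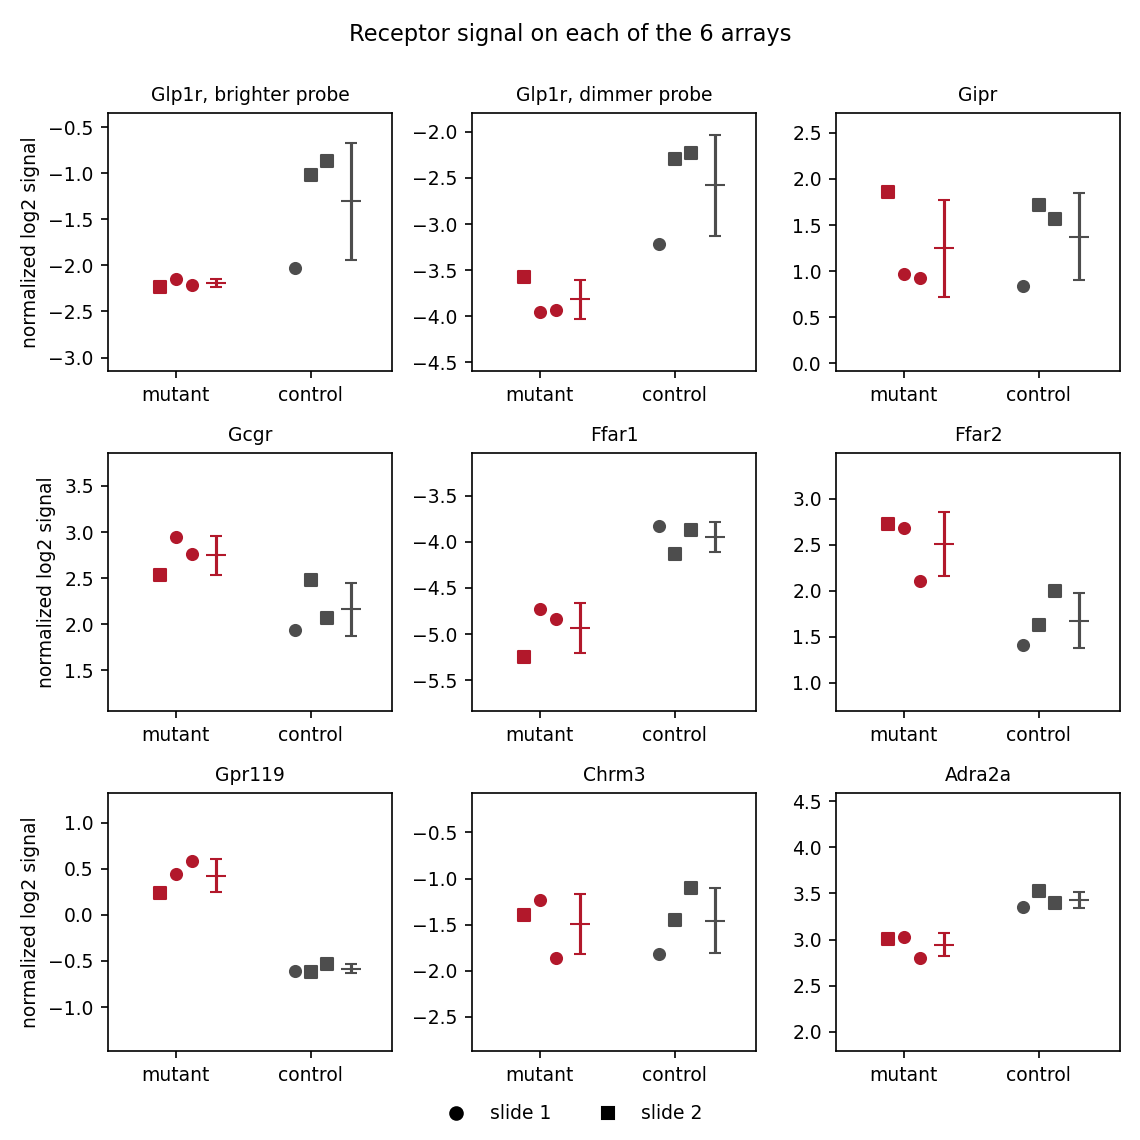
Normalized log2 signal (y axis) of the 9 probes on the 6 arrays, mutant left and control right, with circles for slide 1, squares for slide 2, and bars for the mean ± SD of 3 arrays. Every panel spans the same number of log2 units. The 3 mutant points of Gpr119 lie above and those of Ffar1 below all control points, and Gipr splits by slide rather than by group.

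Among the class B receptors, none passed the threshold. Glp1r is the receptor for GLP-1 on beta cells. Its brighter probe had normalized log2 signals of -2.23, -2.15 and -2.21 on mutant arrays A, B and C, against -2.03, -1.02 and -0.86 on control arrays A, B and C. The mutant arrays were nearly alike and all lay below the controls, but control A was close to them and far from controls B and C. Mean signal was -2.20 ± 0.043 in mutants and -1.31 ± 0.63 in controls (SD, n = 3 each). The difference of -0.89 (SE 0.31, 95% interval -1.65 to -0.13) did not pass (limma, adjusted p = 0.191). Within slide 1, where control A is the only control, it was -0.15, and within slide 2 it was -1.29. Without control A the difference was -1.25 and passed (limma, adjusted p = 0.0298), whereas with any other array left out the adjusted p was up to 0.464. Why control A stands apart was not tested.

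On the dimmer Glp1r probe, all mutants again lay below all controls and the controls kept their order, but the mutants did not. It gave -3.57, -3.95 and -3.93 in mutants A, B and C, and -3.22, -2.30 and -2.23 in controls A, B and C. Control A was again the lowest control. In a fit of every probe by itself the difference was -1.24 (SE 0.29, limma, adjusted p = 0.0870). On slide 1 it was -0.72 and on slide 2 -1.31. The pair overlap in sequence and are not independent measurements of the transcript.

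Gipr encodes the GIP receptor, and its probe lies on the minus strand at chr7:19742486-19742545 (mm9). Signals were 1.85, 0.97 and 0.92 on mutant arrays A, B and C, against 0.84, 1.72 and 1.56 on control arrays A, B and C. The arrays separated by slide and not by genotype, with 0.84 to 0.97 on slide 1 and 1.56 to 1.85 on slide 2. The overall difference was -0.13 (SE 0.34, 95% interval -0.96 to 0.71, limma, adjusted p = 0.859). Slide 1 holds 2 mutants and slide 2 holds 2 controls, and within the slides the difference was positive, 0.11 and 0.21. Blocking on slide gave 0.16 (limma, adjusted p = 0.382), so its direction is not settled by these arrays.

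Gcgr, the glucagon receptor, has its probe on the plus strand at chr11:120400221-120400280 (mm9). It measured 2.53, 2.95 and 2.76 on mutant arrays A, B and C, against 1.94, 2.48 and 2.07 on control arrays A, B and C. The lowest mutant and the highest control lay close together. Mutants were 1.50-fold higher (log2 difference 0.59, SE 0.19, 95% interval 0.13 to 1.04), which was not called (limma, adjusted p = 0.161). The difference was 0.92 within slide 1 and 0.26 within slide 2.

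**Figure D2:**
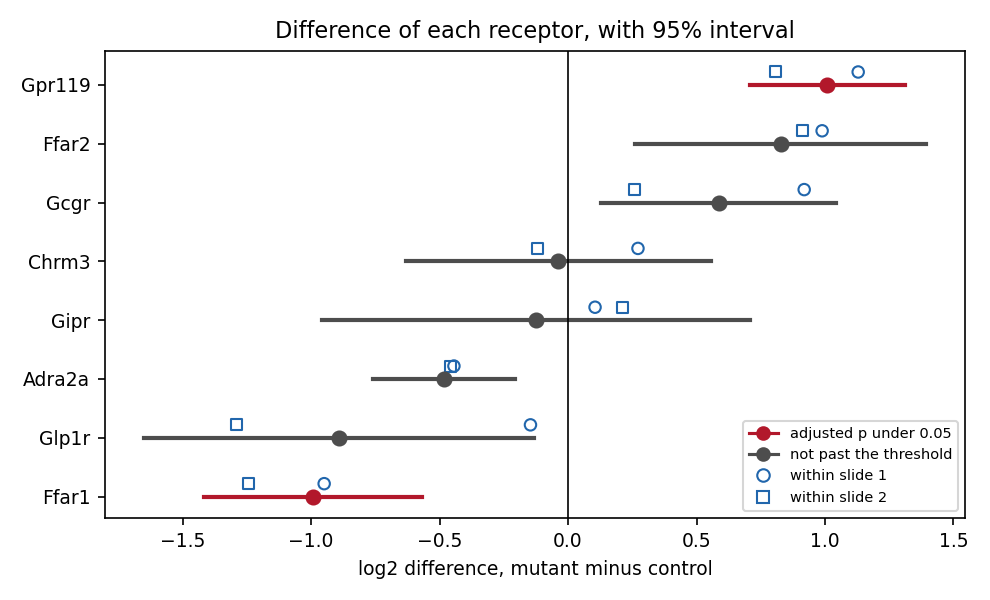
Log2 difference, mutant minus control (x axis), of the 8 receptors with its 95% interval over 3 arrays per group, red where the adjusted p is under 0.05. Open circles and squares are the differences within slide 1 and slide 2. Gpr119 at 1.01 and Ffar1 at -0.99 are the 2 that passed, Adra2a has nearly the same difference on both slides, and Glp1r differs between slides.

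Of the lipid-sensing receptors, Ffar1 fell and Gpr119 rose. Ffar1 (GPR40) responds to long-chain fatty acids in beta cells. Its signals were -5.24, -4.72 and -4.84 on mutant arrays A, B and C, against -3.83, -4.13 and -3.87 on control arrays A, B and C. The groups were clearly apart, with a mean of -4.94 ± 0.27 in mutants and -3.94 ± 0.16 in controls (SD, n = 3 each). Ffar1 was 1.99-fold lower in mutants (log2 difference -0.99, SE 0.17, 95% interval -1.42 to -0.57, limma, adjusted p = 0.0484). The fall was present on both slides, by -0.95 on slide 1 and -1.24 on slide 2, and a fit with the slide as a block gave -1.10 (adjusted p = 0.0341).

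The Ffar1 probe was dim, at background-corrected intensities of 63.5, 69.7 and 56.7 on mutant arrays A, B and C, against 135, 141 and 178 on control arrays A, B and C. With normexp correction and its offset of 50 the difference was -0.47 (limma, adjusted p = 0.137). In the deposited table of equalized values it was -0.59 (limma, adjusted p = 0.0869). The offset is near the mutant intensities of this probe, and the deposited values followed spot signal before background subtraction. An added amount of that kind shrinks the log2 difference of a dim probe, and by how much was not tested. Ffar1 also missed the threshold with quantile normalization (-0.97, adjusted p = 0.0752) and with median scaling (-0.97, 0.0727). With any 1 of the 6 arrays left out, Ffar1 stayed lower but no longer passed (limma, adjusted p = 0.0696 to 0.185).

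Ffar2 (GPR43) responds to short-chain fatty acids such as acetate and propionate. The probe, on the minus strand at chr7:31604149-31604208 (mm9), gave 2.72, 2.68 and 2.11 on mutant arrays A, B and C, against 1.41, 1.62 and 2.00 on control arrays A, B and C. Mutant C and control C nearly met. Mutants were 1.77-fold higher (log2 difference 0.83, SE 0.23, 95% interval 0.26 to 1.39), without passing the threshold (limma, adjusted p = 0.127). The difference was similar within slide 1, 0.99, and within slide 2, 0.91. It was 0.43 without mutant arrays A and B, which leaves mutant C alone.

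On mouse chromosome 7, Ffar2, Ffar3 and Ffar1 are neighbours in that order, with a single long non-coding gene, Gm32236, between Ffar2 and Ffar3 (RefSeq, GRCm38.p6). Ffar3 (GPR41), the other short-chain fatty acid receptor, had signals of -1.46, -1.51 and -1.76 on mutant arrays A, B and C, against -1.07, -1.05 and -0.92 on control arrays A, B and C. All mutants lay below all controls, by -0.56 (SE 0.12, limma, adjusted p = 0.0794). That was -0.56 on slide 1 and -0.47 on slide 2. Ffar1 and Ffar3 had negative differences and Ffar2 a positive one, and of the 3 neighbours only Ffar1 was called in the fit as reported.

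Ffar4 (GPR120), a long-chain fatty acid receptor known in mouse islets from delta cells, lies elsewhere in the genome. It had 0.91, 1.21 and 0.87 on mutant arrays A, B and C, against -0.17, -0.36 and -1.24 on control arrays A, B and C. Mutants were all higher, by 1.59 (SE 0.29), but the adjusted p of 0.0559 (limma) was just over the threshold. Ffar4 passed with normexp correction (adjusted p = 0.0344) and in the deposited equalized values (0.0359, limma). It passed under 5 of 20 other settings in all (limma, adjusted p = 0.0315 to 0.269), of which 1 only loosened the threshold to 0.1. Within slide 1 the difference was 1.21 and within slide 2 it was 1.71. Of the long-chain receptors, Ffar4 had a positive and Ffar1 a negative difference.

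**Figure D3:**
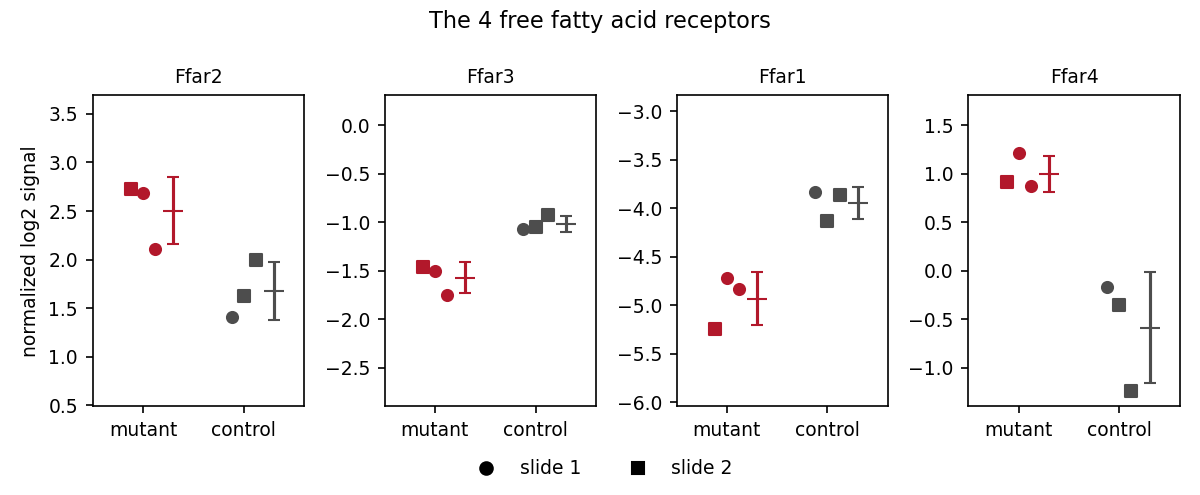
Normalized log2 signal (y axis, the same span in each panel) of Ffar2, Ffar3, Ffar1 and Ffar4 on the 6 arrays, mutant left and control right, with the mean ± SD of 3 arrays beside the points. Circles are slide 1 and squares slide 2. Mutant points lie above the controls for Ffar2 and Ffar4 and below them for Ffar3 and Ffar1, and of these Ffar1 alone passed as reported. With normexp correction Ffar4 passed (limma, adjusted p = 0.0344) and Ffar1 did not (0.137). The Ffar1 probe is dim, and the offset added by normexp shrinks the differences of dim probes.

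Gpr119, a receptor for oleoylethanolamide and related lipids, was the receptor with the smallest p. Its probe lies on the minus strand at chrX:46021196-46021255 (mm9). Signals were 0.23, 0.45 and 0.59 on mutant arrays A, B and C, against -0.61, -0.62 and -0.53 on control arrays A, B and C. The controls were nearly alike and all 3 mutants were above them. The mean was 0.42 ± 0.18 in mutants and -0.59 ± 0.048 in controls (SD, n = 3 each), and Gpr119 was 2.01-fold higher (log2 difference 1.01, SE 0.12, 95% interval 0.71 to 1.31, limma, adjusted p = 0.0242).

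The Gpr119 difference was 1.13 within slide 1 and 0.81 within slide 2, and 0.97 with slide as a block (adjusted p = 0.0341). It was 1.01 with normexp correction (limma, adjusted p = 0.0209) and 1.04 in the deposited table (limma, adjusted p = 0.0225). At intensities of 1255 to 2832, this probe is too bright for an added offset of 50 to move it much. Those settings therefore cannot show whether its difference is firmer than that of the dim Ffar1 probe. With 1 array left out the Gpr119 difference was 0.93 to 1.10, and it still passed without mutant A (limma, adjusted p = 0.0312). It did not pass without control A (0.0504), mutant C (0.0624), mutant B (0.107), control C (0.113) or control B (0.117).

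The Gpr119 promoter is shown because Gpr119 rose and because homeodomain factors such as NKX6-1 bind sites with a TAAT core. The 250 bases before the RefSeq start, chrX:48674479-48674728 on the minus strand (GRCm38.p6), are given with TAAT and its reverse complement ATTA in capitals.
Gpr119 promoter: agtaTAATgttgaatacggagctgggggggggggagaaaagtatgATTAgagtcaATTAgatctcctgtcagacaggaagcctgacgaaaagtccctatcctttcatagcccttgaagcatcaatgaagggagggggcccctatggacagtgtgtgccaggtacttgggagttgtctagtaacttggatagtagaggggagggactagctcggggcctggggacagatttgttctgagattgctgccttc
It holds 3 matches, none overlapping another. Of 32851 windows of 250 bases in that table, 54.9% hold TAAT on either strand and 17.3% hold at least 3 matches. Windows were found for 7 of the 8 receptors, 10 in all, and 3 of these windows, of Gpr119 and Ffar2, hold the core. The longer TAATTA, which contains both TAAT and ATTA, was in 0 of the 10 windows and in 4.8% of all windows. Binding was not measured.

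Neither neurotransmitter receptor passed the threshold. Chrm3, the M3 muscarinic receptor through which acetylcholine raises calcium in beta cells, has its probe on the minus strand at chr13:9875880-9875939 (mm9). It measured -1.40, -1.23 and -1.86 on mutant arrays A, B and C, against -1.82, -1.45 and -1.10 on control arrays A, B and C. The groups overlapped throughout. The difference was -0.04 (SE 0.24, 95% interval -0.63 to 0.55, limma, adjusted p = 0.943). On slide 1 it was 0.27 and on slide 2 -0.12. The sign of such a small difference turned with the background correction and with slide as a block.

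Adra2a, the alpha-2A adrenergic receptor, has its probe on the plus strand at chr19:54123363-54123422 (mm9). Signals were 3.00, 3.03 and 2.80 on mutant arrays A, B and C, against 3.36, 3.53 and 3.40 on control arrays A, B and C. All mutants were below all controls, and the spread within each group was small (SD 0.12 in mutants and 0.088 in controls, n = 3 each). Adra2a was 1.40-fold lower (log2 difference -0.48, SE 0.11, 95% interval -0.76 to -0.21), and it missed the threshold (limma, adjusted p = 0.0891). The difference was nearly equal on the slides, -0.44 and -0.46. It passed when limma was run with a trended prior variance and robust estimation (adjusted p = 0.0487), a setting in which Ffar1 did not pass (0.0597). With 1 array left out, the adjusted p of Adra2a was 0.0965 to 0.291.

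**Figure D4:**
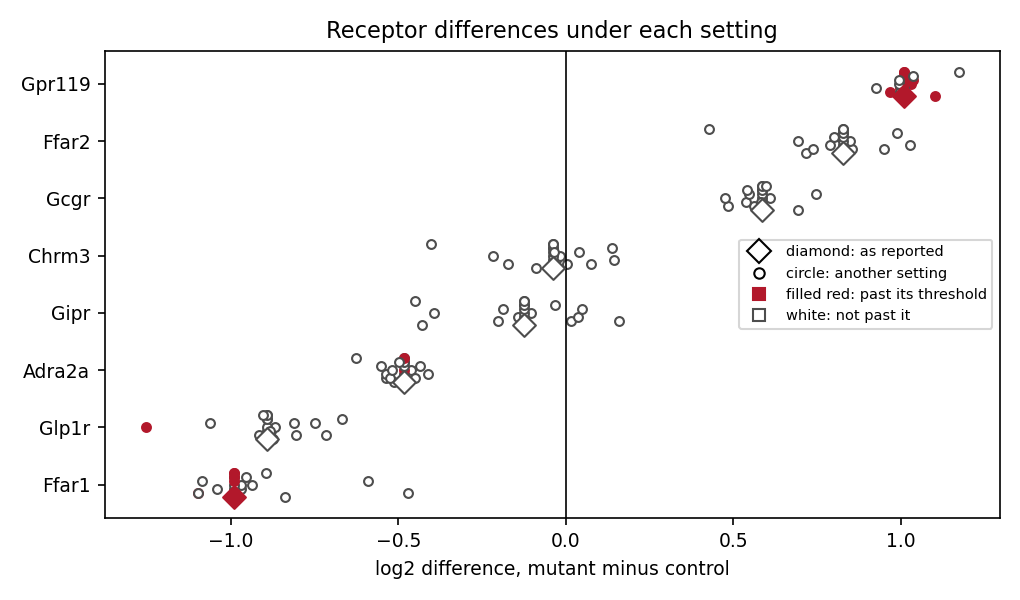
Log2 difference, mutant minus control (x axis), of each receptor as reported (diamonds) and under 20 other settings (circles), red where the adjusted p was under that setting's threshold. Gpr119, Ffar2 and Gcgr stayed above 0 and Adra2a, Glp1r and Ffar1 below 0 under all of them, while Gipr and Chrm3 lay on both sides. Gpr119 passed under 13 of the 20 and Ffar1 under 6.

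Other receptors of these families were mostly not called. Of 22 related receptors on the array, 18 were tested, and Vipr1 was the one that passed, which is 5.56% against 2.53% of all genes. Vipr1, the class B receptor VPAC1 for vasoactive intestinal peptide and PACAP, fell to 2.72 ± 0.035 in mutants, against 3.49 ± 0.067 in controls (SD, n = 3 each), by -0.77 (SE 0.095, limma, adjusted p = 0.0246). Its relatives Vipr2 and Adcyap1r1, named after their values were seen, had positive differences that did not pass. Vipr2 differed by 0.90 with no overlap of the groups (limma, adjusted p = 0.191), and Adcyap1r1 by 0.56 with overlap (0.468). The list median was 0.03, with 9 positive and 9 negative differences. The muscarinic and adrenergic relatives that were measured did not pass: Chrm1 differed by 0.61 (adjusted p = 0.494), Chrm4 by -0.02 (0.954), Adra2b by -0.23 (0.666) and Adra2c by 0.75 (0.254, limma). Chrm2 had -0.22 (adjusted p = 0.809) and was above background on 1 of 3 mutant arrays, and Chrm5 was well above background on 0 arrays. Glp2r, the GLP-2 receptor, differed by 0.24 (limma, adjusted p = 0.681).

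Downstream of the Gs-coupled receptors, 33 of 34 listed genes were tested, 1 rose and 1 fell, which is 6.06% against 2.53% of all genes. Pde4d, a phosphodiesterase that breaks down cyclic AMP, averaged -3.33 ± 0.087 in mutants and -4.25 ± 0.26 in controls (SD, n = 3 each), a rise of 0.92 (SE 0.15, limma, adjusted p = 0.0448). It was not called with slide as a block (0.85, adjusted p = 0.0555), with normexp correction (0.64, 0.0535) or in the deposited equalized values (0.62, 0.0731). Grk5, a kinase that phosphorylates activated receptors, fell to -1.02 ± 0.23 in mutants, against 0.05 ± 0.14 in controls, by -1.08 (SE 0.16, limma, adjusted p = 0.0335). Gnas, which encodes Gs alpha, differed by 0.24 (adjusted p = 0.291), and Rapgef4, the cyclic AMP sensor EPAC2, by -0.31 (limma, adjusted p = 0.320). The median difference of the list was 0.10.

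Of the 20 genes of the Gq and phospholipase C list, all tested, 3 rose and 1 fell, which is 20% against the 2.53% of all genes. The inositol trisphosphate receptors Itpr1 and Itpr2, calcium channels of the endoplasmic reticulum, rose by 0.78 (SE 0.11, adjusted p = 0.0317) and 0.59 (SE 0.090, limma, adjusted p = 0.0386). Gna14, a G alpha subunit of the Gq family, rose by 0.96 (SE 0.17, limma, adjusted p = 0.0477). Gna14 was still called with normexp correction (limma, adjusted p = 0.0494). It was not called in the deposited equalized values (0.83, limma, adjusted p = 0.0622), with quantile normalization (0.98, 0.0612) or with median scaling (0.98, 0.0649). Prkca, protein kinase C alpha, fell by -0.95 (SE 0.16, limma, adjusted p = 0.0471), but it was not called with slide as a block (adjusted p = 0.0668). Gnaq itself differed by 0.08 (adjusted p = 0.727), and the list median was 0.00.

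In the Gi and Go list, 15 of 16 genes were tested and 3 rose, which is 20% against the 2.53% of all genes. All 3 are RGS proteins, which speed the turning off of G alpha subunits. The other 4 RGS genes tested did not pass, with differences of -0.61 for Rgs2, -0.23 for Rgs7, 0.17 for Rgs4 and 0.18 for Rgs17. Rgs16 had 2.94, 3.56 and 2.79 on mutant arrays A, B and C, against 1.07, 1.29 and 1.67 on control arrays A, B and C. It was 3.37-fold higher in mutants (log2 difference 1.75, SE 0.25, limma, adjusted p = 0.0335), the largest rise among the 10 called genes of the pathway lists. Rgs9 rose by 1.03 (adjusted p = 0.0335) and Rgs8 by 1.11 (limma, adjusted p = 0.0447). Neither Rgs16 (adjusted p = 0.0550) nor Rgs8 (0.0695) was called by limma once slide was a block. Gnao1, the Go alpha subunit, differed by -0.25 (adjusted p = 0.227), and the list median was 0.17.

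No gene of ligand supply and breakdown was called among the 21 tested of 24. The largest difference was that of Ache, acetylcholinesterase, which was 1.42 higher (SE 0.32, adjusted p = 0.0837), with all mutants above all controls. Gcg, the precursor of glucagon and GLP-1, differed by 0.24 (adjusted p = 0.674), Gip by -0.18 (0.748), the GLP-1 protease Dpp4 by 0.03 (0.961) and the prohormone convertase Pcsk1 by -0.48 (limma, 0.209). The Gcg difference was -0.033 with quantile normalization and -0.038 in the deposited equalized values. Whether the very bright Gcg probe could still register a change was not tested.

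Over the 5 lists together, all but 9 of 116 genes were tested, and 7 rose and 3 fell, which is 9.35% of those tested against 2.53% of all genes. The total of 10 called was 6 with slide as a block, 1 without a filter on dim probes and 0 to 3 with any 1 array left out.

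**Figure D5:**
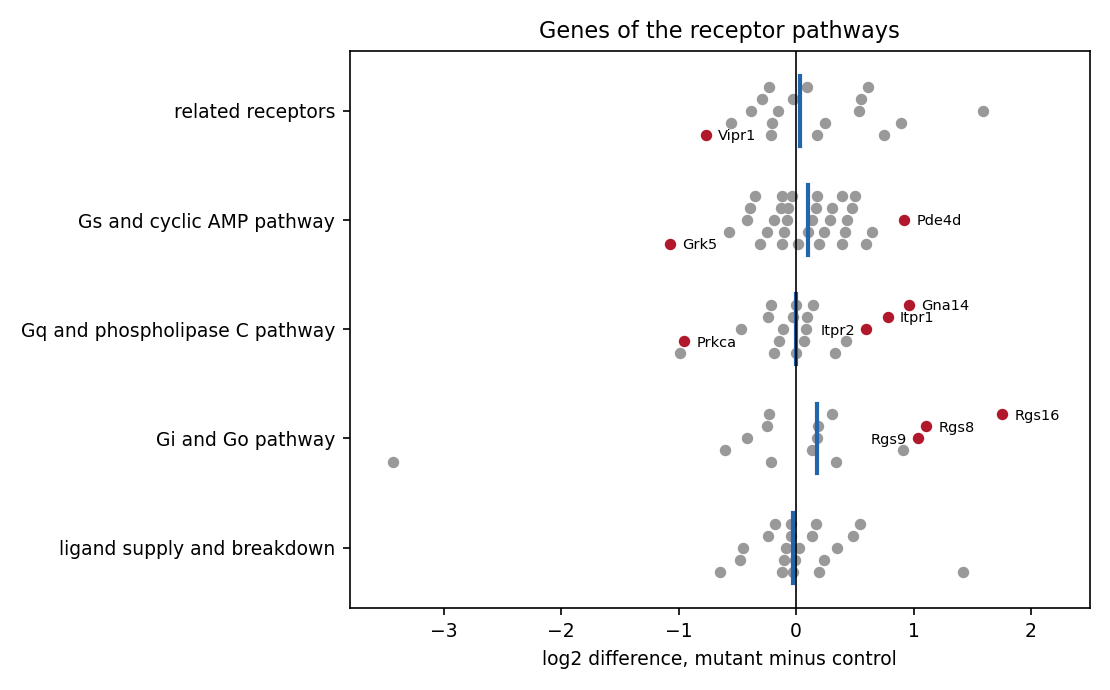
Log2 difference, mutant minus control (x axis), of each tested gene of the 5 pathway lists, with red points and names for genes whose adjusted p is under 0.05 and a blue bar at each list's median. The medians lie between -0.02 and 0.17, and called genes lie on both sides of 0 in the Gs and Gq lists, above 0 in the Gi and Go list and below 0 among the related receptors. The grey point at -3.44 is Kcnj5, named after its values were seen (adjusted p = 0.147).

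Each receptor was also set against all other tested genes with a symbol by the Pearson correlation of normalized log2 signal over the 6 arrays. This describes likeness only, over arrays that share slide, genotype and exocrine content, and the highest of 15527 correlations over 6 arrays is large by choice. Gpr119 was most like Sdc2 (r = 0.999) and Fam135b (0.997), of which Fam135b rose too, by 1.25 (limma, adjusted p = 0.0236). Ffar1 was most like Cemip (0.995) and Sirpa (0.994), Adra2a like Ksr1 (0.998) and Apex2 (0.995), and Glp1r like Pik3ca (0.997) and Snx10 (0.993). Gcgr was closest to Exd1 (0.999) and Gnas (0.990), Ffar2 to B3gnt4 (0.996) and P3h3 (0.992), Gipr to Appl1 (0.998) and Ell (0.995), and Chrm3 to Rabl3 (0.994) and Cd59a (0.991). Among the receptors, Gpr119 and Adra2a ran most nearly opposite (r = -0.96).

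Markers of the islet cell types were well above background on all 6 arrays. Of 9 beta cell markers, 3 fell, which is 33.3%, against 1.12% of all genes. These were Slc2a2 (GLUT2, by -2.01, limma, adjusted p = 0.0415), Ucn3 (urocortin 3, by -1.24, 0.0236) and Slc30a8 (the granule zinc transporter, by -0.96, 0.0282). The summed scaled beta cell signal, in multiples of the array's 75th percentile, was 667 to 1070 in mutants and 757 to 1037 in controls, and it is set by the bright Ins1, Ins2 and Iapp probes, whose differences were 0.26, 0.25 and 0.26. The other 6 beta cell markers were all lower, with no overlap of the groups, so that 6 of 9 did not overlap, against 26.3% of all genes, and the median difference was -0.77. The mean over the 9 markers, in log2 units relative to the control mean, was -0.63 to -0.56 in mutants and -0.06 to 0.11 in controls. Normalized Ins1 was 7.80, 8.20 and 8.28 in mutants A, B and C, and 8.11, 7.68 and 7.72 in controls A, B and C. The log2 75th percentile subtracted was 11.23, 10.85 and 10.66 in mutants A, B and C. In controls A, B and C it was 10.91, 11.28 and 11.34. Mutant A, control B and control C had the highest percentiles and the lowest normalized Ins1. Added together, percentile and normalized Ins1 came to nearly the same value on every array, so Ins1 intensity before scaling hardly differed. Whether such bright spots were at the top of the scanner's range was not tested. The part of scaling in the hormone probes and the sums was not tested either, so they are not read as hormone RNA levels. The alpha cell sum was 343 to 614 in mutants and 320 to 468 in controls, with 0 of 8 markers called. Of the 8, 7 had positive differences, with a median of 0.47, and 4 did not overlap between groups: Irx1 (0.80), Irx2 (0.59) and Gc (0.98) were above and Slc7a2 (-0.72) below the controls. The delta and PP cell sum was 685 to 924 in mutants and 582 to 841 in controls, with 0 of 5 called. The median difference of these 5 was 0.40, with 4 positive and 1 negative. Rbp4 (1.30, limma, adjusted p = 0.0930) was the 1 of 5 whose groups did not overlap, against 26.3% of all genes. Hhex differed by 0.74 with overlapping groups.

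Exocrine acinar markers, which come from tissue outside islets, ranged widely between mutant arrays, at 741 to 3304 in mutants and 1100 to 1439 in controls, with all 12 differences positive and 0 called. By array the acinar sum was 741, 2152 and 3304 in mutants A, B and C, and 1100, 1169 and 1439 in controls A, B and C. Within the mutants, the order of Gpr119 (0.23, 0.45 and 0.59) was that of the acinar sum, and that of Ffar1 (-5.24, -4.72 and -4.84) was not. Within controls A, B and C, the order of Gpr119 (-0.61, -0.62 and -0.53) was not that of the acinar sum. Mutant A had the lowest acinar sum of all arrays, and its Gpr119 signal was above every control. The part of acinar RNA in the receptor results was not tested. Leukocyte and macrophage markers summed to 21.1 to 27.1 in mutants and 32.4 to 35.9 in controls, with 0 of 8 called. That sum rests on the bright Itgam (difference -0.49) and Cd3e (-0.55) probes. Ptprc (0.17), Adgre1 (0.16) and Cd79a (0.08) had the other sign, and the mean over the 8 markers overlapped between groups (-0.32 to 0.02 in mutants and -0.23 to 0.39 in controls, log2 relative to the control mean). Duct sums were 6.22 to 8.03 in mutants and 6.65 to 7.27 in controls, and endothelial sums 32.3 to 33.1 in mutants and 28.4 to 35.1 in controls. Mesenchymal sums were 8.79 to 10.5 in mutants and 4.92 to 12.5 in controls, and Schwann cell sums 1.18 to 1.37 in mutants and 0.99 to 1.26 in controls. No gene of these 4 lists was called by limma. In the duct list 2 differences were positive and 5 negative. The largest were 3.12 for Cftr (limma, adjusted p = 0.0831), which was above background on 2 of 3 control arrays, and -1.10 for Krt19 (0.291). The part of the beta cell, alpha cell and leukocyte markers in the receptor results was not tested.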

How the data were processed

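Per the labels' protocols, 150 ng of islet RNA per sample was labelled with Cy3 and hybridized to 1-colour Agilent arrays. The scanner files that the authors deposited hold spot intensities, extracted with Agilent Feature Extraction 10.7.3.1 per the file headers, corrected for background within the array and not scaled between arrays. The deposited files also hold other values, flags for saturation, outliers and signal above background. A further deposited set of linear intensities equalized by a method not given in the sources used here served as an alternative; its column medians were 272.8, 274.5 and 274.55 in mutants A to C and 270.15, 266.95 and 268.3 in controls A to C, and it followed the median spot signal before background subtraction.

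Spots of a probe were averaged on the log2 scale after subtracting the array's 75th percentile. A probe entered the test if all arrays of either group had it above background, and a gene name was represented by its brightest tested probe (22775 names, 28361 probes). Symbols were updated through accessions where a RefSeq table held them (15528 representative probes). The comparison used limma 3.58.1, two-sided (R 4.3.3, version 1.17.8 of data.table and 2.0.0 of jsonlite). On simulated arrays the fit called 37% of genes given a log2 change of 1 and 85% of those given 2. It also called 9 unchanged genes. A gene that was not called may therefore still differ. The slide was read from the array barcode. Replicates are separate pools, and precision is limited by how few arrays there are. Sample letters occur in both groups, but no label says that they pair samples, so letters served as a block in an alternative only. Deviations of same-letter samples correlated at -0.23, -0.19 and -0.03. Samples of the same letter always lay on different slides, so these correlations cannot decide whether letters mark pairs. Named genes were the 8 receptors, Nkx6-1, up to 4 called genes of each pathway list by smallest p (or, with none called, the largest difference), 17 further genes in any case, and the 2 genes most correlated with each receptor. The receptors, lists and tests were chosen with earlier results of these data known. Promoter sequences are RefSeq's (GRCm38.p6), probe sequences the files'.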

Additional observations from a re-analysis of the deposited data

How the results depend on the processing

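Counts of calls depended on the setting. Of the 8 receptors, 2 were called as reported and 1, in each case Gpr119, with normexp background correction, with the equalized values the authors deposited, with quantile or median scaling, or with no filter on dim probes. The letters of the samples, used as a replicate block although no label pairs them, left 0 receptors, 0 of 22775 genes and 0 pathway genes called by limma, with 6, 3163 and 27 at an unadjusted p under 0.05. Leaving out mutant arrays A and B together, an alternative chosen after seeing the data that leaves 1 mutant assumed to vary like the controls, also left 0, 0 and 0, with 3, 3864 and 25 at an unadjusted p under 0.05. With 1 array left out, calls numbered 0 to 1 receptors, 13 to 418 genes and 0 to 3 pathway genes. At an adjusted p under 0.1 there were 1514 genes and 16 pathway genes. Pathway calls, 10 as reported, were 6 with scaling to the median, 6 with slide as a block and 1 without a filter, a setting that tests more genes and called 314 genes higher and 99 lower, against 320 and 256 as reported. Small differences changed sign. With normexp they were 0.0045 for Chrm3, 0.18 for Chrm2 and 0.14 for Gip, and in the deposited equalized values they were 0.040 for Chrm3, 0.074 for Chrm2, 0.070 for Gip and -0.038 for Gcg. Quantile normalization gave -0.033 for Gcg, slide as a block 0.16 for Gipr and 0.076 for Chrm3, and leaving out mutants A and B 0.75 for Chrm2 and 0.0050 for Chrm4. With 1 array left out, ranges spanning 0 were -0.43 to 0.048 for Gipr, -0.22 to 0.14 for Chrm3, -0.18 to 0.11 for Chrm4, -0.70 to 0.10 for Chrm2, -0.46 to 0.014 for Gip, -0.10 to 0.45 for Glp2r, -0.0076 to 0.16 for Gnaq and -0.24 to 0.21 for Dpp4. The cause of these changes was not tested. Chrm2 and Gip were not above background on every mutant array, and the Ffar1 probe was dim; its difference was -0.99 as reported and -0.47 with normexp.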
